A study of Mus musculus with 13 samples.

Results

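The transcripts of 67 genes for proteins of the spliceosome and for splicing factors were examined in common lymphoid progenitors (CLPs) from the bone marrow of mice with 3 Notch1 genotypes: WT, Notch1+/- and Notch1+/ΔTAD. The genes were chosen by a rule on names that used no measured value, though earlier results of these data were known. They were every listed gene named Snrpa to Snrpg, U2af, or Snrnp, Lsm, Sf3a, Sf3b, Prpf or Srsf followed by a digit, and they made up 67 of the 24972 genes listed. CLPs are bone marrow precursors that give rise to lymphoid cells, and the study asked which genes depend on Notch signaling in them. RNA of 13 mice, with 1 library per mouse, was measured by 3′ RNA-Seq, which reads the end of polyadenylated transcripts. There were 5 WT libraries (numbered 1, 2, 3, 10 and 11), 5 Notch1+/- libraries (4, 5, 6, 12 and 13) and 3 Notch1+/ΔTAD libraries (7, 9 and 14). All mice were untreated adults of strain C57BL/6, aged 6 to 12 weeks. Of the Notch1 alleles, 1 is functional in Notch1+/-. In Notch1+/ΔTAD, 1 allele lacks the transcriptional activation domain (TAD) and the other is WT. Neither mutant allele was described as driven by a Cre. The cells were sorted as live, lineage-negative and positive for CD127 and CD135, with low Sca1 and low cKit.

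The spliceosome removes introns from pre-mRNA and is built from small nuclear ribonucleoproteins (snRNPs), each a small nuclear RNA with its proteins. A ring of Sm proteins (Snrpb, Snrpd1 to Snrpg) holds the U1, U2, U4 and U5 RNAs, and a related ring of Lsm proteins holds U6. U1 recognizes the 5′ splice site, U2 with the Sf3a and Sf3b proteins and U2AF recognizes the branch point and the 3′ splice site, and the U4/U6.U5 tri-snRNP then joins. SR proteins (Srsf genes) bind exons and help the snRNPs choose splice sites. The U11/U12 snRNPs serve a minor class of introns. In blood cells these genes are known above all because SF3B1, U2AF1 and SRSF2 are recurrently mutated in myelodysplastic syndromes. Libraries of this kind measure the mRNAs of the proteins, not the small nuclear RNAs and not splicing itself.

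Values were TPM (transcripts per 1000000), which sum to 1000000 in each library. The files held no read counts, so the depth behind a value is unknown. Between 3264 and 6326 genes were above 0 in a library, and a value of 0 is given here as listed at 0. WT libraries had 3744 to 4614 genes above 0, Notch1+/- libraries 3264 to 6326, and Notch1+/ΔTAD libraries 4706 to 5764. Thus every Notch1+/ΔTAD library had more genes above 0 than every WT library. The targeted gene, Notch1, stood at 0 to 25.7 TPM in WT, 9.27 to 78.5 TPM in Notch1+/- and 0.893 to 35.0 TPM in Notch1+/ΔTAD libraries, so these ranges overlapped. Reads from the 3′ end check an allele only where its altered part includes that end, which was not given in the sources used here. Of the sort markers, Flt3 (CD135) was above 0 in all 13 libraries, Il7r (CD127) in 12, Kit in 8 and Ly6a (Sca1) in 5. Of 5 further genes expected in CLPs, 4 were listed. Dntt, a lymphoid progenitor enzyme, was at 2095 to 9616 TPM. The others were at 0 in some libraries, with Rag1 at 0 to 61.1 TPM, Rag2 at 0 to 29.1 TPM and Il2rg at 0 to 840 TPM. Of 8 erythroid genes, 7 were at 0 in all 13 libraries, and of 7 T and NK cell genes, 5 were. Of the rest, Cd4 was above 0 in 2 WT libraries, reaching 187 TPM, and Cd3d in 1, at 0.736 TPM. Both were at 0 in every mutant library. The summed level of 8 myeloid genes was 436 to 2067 TPM in WT, 212 to 1257 TPM in Notch1+/- and 272 to 1773 TPM in Notch1+/ΔTAD libraries, and that of 6 mature B cell genes was 3.91 to 342, 13.4 to 501 and 14.3 to 217 TPM. The part of such cells in the results below was not tested. In bulk RNA, fewer cells of a type and less RNA per cell cannot be told apart.

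Most of the 67 genes belonged to the well-detected part of this transcriptome. Of the 67 genes, 66 were above 0 in at least 1 library, and Srsf12 was at 0 in all 13. Above 0 in all 13 libraries were 25 of these 66 genes (37.9%), against 772 of the 10149 genes above 0 anywhere (7.61%). A median of at least 10 TPM over the 13 libraries was reached by 40 of the 66 (60.6%), against 21.4% of all genes, and a median of at least 100 TPM by 22 (33.3%), against 8.13%. At the other end, 19 of the 67 had a median under 1 TPM, and Lsm14b, Prpf31, Prpf38a and Prpf40b were above 0 in 3 or fewer libraries. A library held between 37 (Notch1+/- library 6) and 58 (Notch1+/- library 13) of the 67 genes above 0, and these were also the libraries with the fewest and the most genes above 0 in all. Together the 67 genes took 0.965% to 1.53% of the TPM in WT, 0.919% to 1.41% in Notch1+/- and 1.19% to 1.35% in Notch1+/ΔTAD libraries, and these ranges overlapped.

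**Figure D1:**
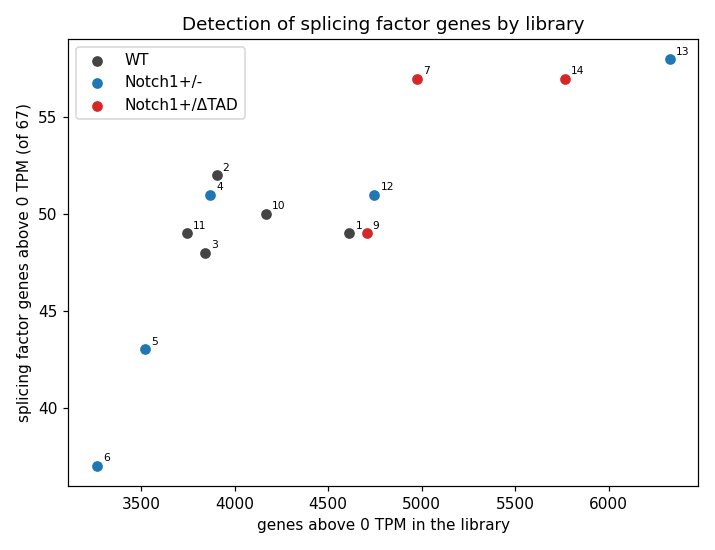
For each of the 13 libraries, the number of the 67 spliceosome and splicing factor genes above 0 TPM (vertical axis) is plotted against the number of all genes above 0 TPM (horizontal axis), with 1 point per library, colored by genotype. Notch1+/- library 6 is lowest on both axes (37 and 3264 genes) and Notch1+/- library 13 is highest (58 and 6326 genes).

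A few genes were at 0 in a whole genotype. Lsm10, a protein of the U7 snRNP that processes histone mRNA, Lsm14b, Sf3a1 and Snrnp25 were at 0 in all 5 WT libraries, which was 6.06% of the 66 genes against 22.7% of all genes. Prpf38a was at 0 in all 5 Notch1+/- libraries (1.52% against 16.4%). Lsm1, of the cytoplasmic ring that acts in mRNA decay, Prpf4 and U2af1l4 were at 0 in all 3 Notch1+/ΔTAD libraries (4.55% against 23.7%). U2af1l4, a relative of the small U2AF subunit, is also on a list that the study chose on these libraries, so its pattern is not independent evidence. In WT it was 0, 606, 0, 0 and 577 TPM, so it was at 0 in 3 of the 5 WT libraries as well. Snrnp25 was the single one of the 66 genes at 0 in all WT libraries and above 0 in all Notch1+/ΔTAD libraries (0.757, 14.6 and 4.07 TPM), and 0.709% of all genes had this pattern. Snrnp25 belongs to the minor U11/U12 snRNP.

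By the median over the 13 libraries of its summed TPM, the Sm core was the highest class, though the U2 class was above it in 2 libraries (WT library 2 and Notch1+/- library 4). TPM divides by transcript length while 3′ libraries give about 1 read per transcript whatever its length, so levels of short genes such as these are set high relative to long ones. On this scale the median of Snrpg, the SmG protein, over the 13 libraries was 1940 TPM, which ranked 82 among all genes. It was 1790, 1488, 1663, 2365 and 2023 TPM in WT libraries 1, 2, 3, 10 and 11. In Notch1+/- libraries 4, 5, 6, 12 and 13 it was 35.2, 869, 2401, 2764 and 1791 TPM, and in Notch1+/ΔTAD libraries 7, 9 and 14 it was 2521, 1940 and 2080 TPM. Apart from Notch1+/- libraries 4 and 5, every library thus held Snrpg between 1488 and 2764 TPM. The medians of Snrpe, Snrpd1, Snrpd3, Snrpd2, Snrpb and Snrpf were 621, 568, 414, 409, 284 and 83.5 TPM. The summed Sm core was 3593 to 5998 TPM in WT, 1878 to 7083 TPM in Notch1+/- and 4174 to 6155 TPM in Notch1+/ΔTAD libraries.

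The U2 class held 14 genes, led by U2af1, the small U2AF subunit that contacts the AG of the 3′ splice site. U2af1 was 796, 2825, 1844, 656 and 1824 TPM in the WT libraries, 846, 780, 6.72, 2470 and 1139 TPM in the Notch1+/- libraries, and 948, 987 and 1927 TPM in the Notch1+/ΔTAD libraries, in the order given above. Its levels in the 3 genotypes overlapped, and 1 library, Notch1+/- library 6, lay far below the rest. U2af2, the large subunit, had a median of 482 TPM, Snrpb2 of 432 TPM and Sf3b6 of 266 TPM. Sf3b1, which holds the branch point, had a median of 42.9 TPM and ranged from 0.204 to 87.3 TPM. Of these 14 genes, 5 were above 0 in all 13 libraries. In the U1 class of 3 genes, Snrnp70, which binds the U1 RNA, was above 0 in all 13 libraries, with 333, 594, 114, 34.8 and 302 TPM in WT, 118, 394, 22.3, 248 and 286 TPM in Notch1+/-, and 248, 115 and 215 TPM in Notch1+/ΔTAD libraries. These levels overlapped in all 3 genotypes.

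In the tri-snRNP class of 8 genes, Snrnp40, a U5 protein, had the highest median, 84.3 TPM. It was 24.0, 108, 118, 213 and 17.6 TPM in WT, 84.3, 7.67, 104, 74.5 and 121 TPM in Notch1+/-, and 47.4, 177 and 54.0 TPM in Notch1+/ΔTAD libraries. The genotypes overlapped over nearly their whole ranges. Prpf8, the large U5 protein at the catalytic center, was above 0 in all 13 libraries, at 11.3 to 178 TPM. As with the 5 Lsm genes other than Lsm1 to Lsm8, none of the 3 U11/U12 genes was above 0 in all 13 libraries. Snrnp48, a U11/U12 protein and the highest of them, was 20.2, 0, 52.4, 41.5 and 42.3 TPM in WT, 232, 0, 0.134, 48.5 and 18.3 TPM in Notch1+/-, and 0, 64.1 and 37.8 TPM in Notch1+/ΔTAD libraries. At least 1 library of each genotype was thus at 0.

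Among the Lsm genes, Lsm3 of the U6 ring had a median of 647 TPM and Lsm7 of 326 TPM. Both are given library by library in the comparisons below. Of the 5 other Lsm genes, Lsm12 was highest, with 665, 0, 393, 540 and 0 TPM in WT, 2.03, 387, 0, 56.3 and 152 TPM in Notch1+/-, and 452, 139 and 325 TPM in Notch1+/ΔTAD libraries. It was at 0 in 2 WT libraries and 1 Notch1+/- library. Among the 8 other Prpf genes, Prpf19, a ubiquitin ligase of the activated spliceosome, was 277, 219, 268, 118 and 111 TPM in WT, 35.5, 47.6, 96.4, 117 and 92.7 TPM in Notch1+/-, and 194, 72.8 and 178 TPM in Notch1+/ΔTAD libraries. The Notch1+/- libraries overlapped WT in 1 library, number 12, which at 117 TPM lay above the lowest WT value of 111 TPM.

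Of the 11 SR proteins, 6 were above 0 in all 13 libraries. Srsf5 was the highest, with 228, 650, 79.9, 180 and 131 TPM in WT, 367, 395, 130, 98.6 and 373 TPM in Notch1+/-, and 274, 226 and 196 TPM in Notch1+/ΔTAD libraries. The Notch1+/ΔTAD values lay inside the range of the WT values. Srsf3 and Srsf2 had medians of 221 and 110 TPM. Among genes with a median of at least 10 TPM, the SD of log2(TPM + 1) over the 13 libraries had a median of 1.98 in the 40 spliceosome genes (range 0.59 to 3.85) and of 2.54 in all 2168 genes. Even the better detected genes spread over several-fold between libraries.

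**Figure D2:**
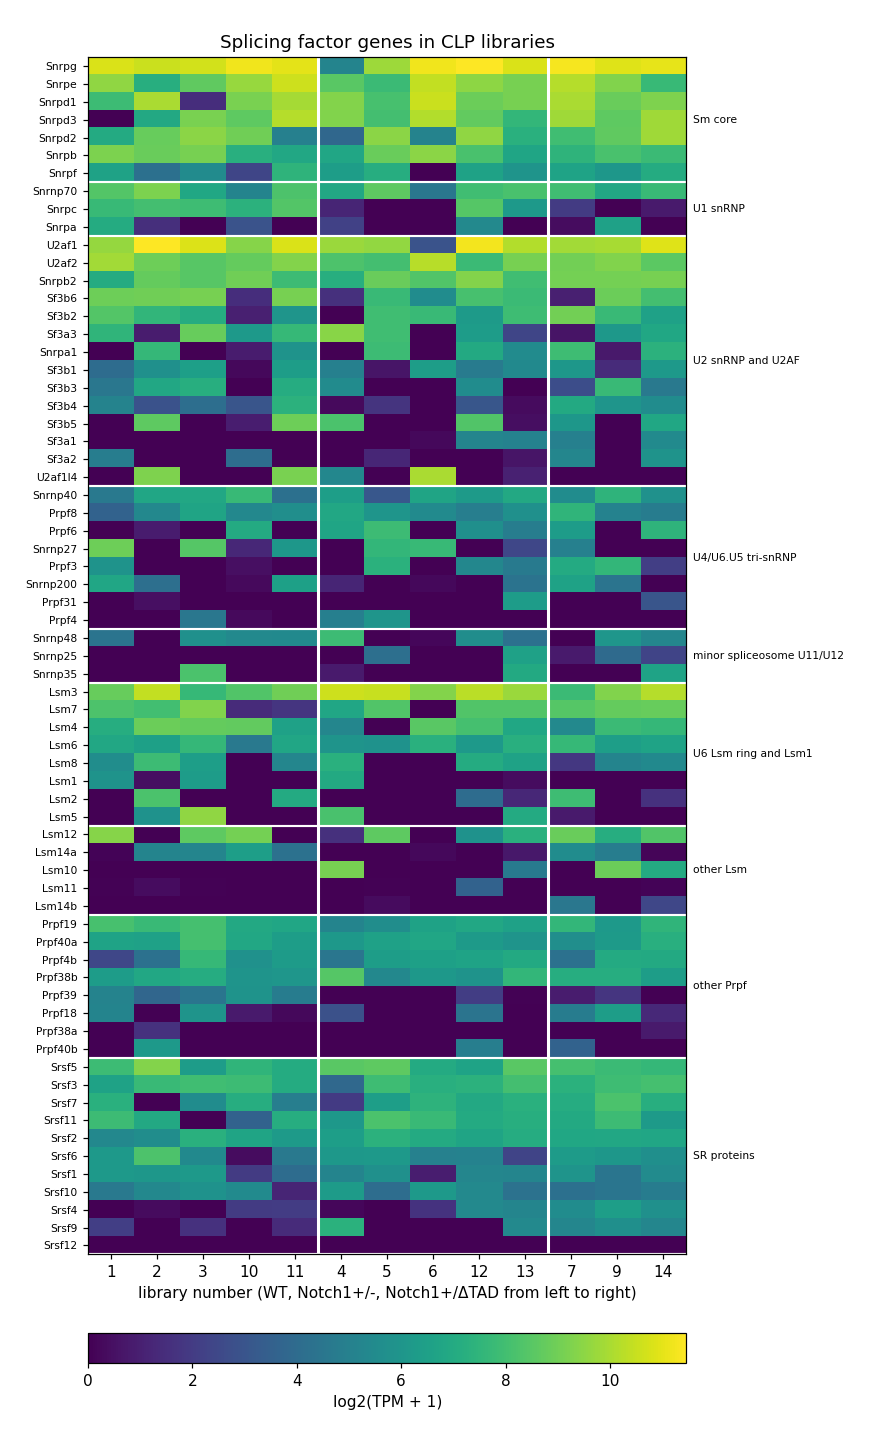
Each of the 67 genes is a row and each of the 13 libraries a column, ordered WT, Notch1+/- and Notch1+/ΔTAD, with color giving log2(TPM + 1) from dark (0) to bright. The Sm core and U2af1 rows are bright across most libraries (the Snrpg median is 1940 TPM). Of the U11/U12 rows, Snrnp25 and Snrnp35 are dark in most (medians of 0 TPM), while the Snrnp48 median is 37.8 TPM.

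To ask which of these genes differed where the TAD of Notch1 was lacking, Notch1+/ΔTAD libraries were compared with WT libraries with limma on log2(TPM + 1), over the genes at 1 TPM or more in at least 3 of the 8 libraries. All fold changes are on this scale, which understates those of low genes. No gene passed an adjusted p of 0.05, so 0% of the 4737 genes tested were called, and 0 of the 53 spliceosome genes tested. Before adjustment, genes in both directions were under that threshold, the higher ones at about the share seen over all genes. At an unadjusted p under 0.05, 2 of the 53 were higher (Srsf4 and Srsf9), against 4.14% of all genes, and 2 were lower (Snrpc and Prpf39), against 0.866%. With no filter on low values these 4 became 8. Groups did not overlap for 3 higher genes (Srsf4, Srsf9 and Snrpb2), against 2.39% of all genes, and for 2 lower genes (Snrpc and Prpf39), against 0.739%. The median log2 difference was 0.33 for the 53 genes and 0.47 for all genes, and 34 of the 53 (64.2%) were higher, against 61.8% of all genes. Leaving out 1 library moved the median of the 53 genes from 0.21 (without WT library 10) to 0.58 (without Notch1+/ΔTAD library 7) and 0.57 (without library 14). With quantile normalization the median over all genes was -0.03 and that of the spliceosome genes 0.21. Over all genes, 196 were higher and 41 lower at an unadjusted p under 0.05 as deposited, and 129 higher and 70 lower after quantile normalization. Of the spliceosome genes, Srsf9 was no longer under 0.05 after that normalization. Because libraries came from separate mice, p-values measure the spread between mice together with technical spread, and both mutants were compared with the same WT libraries.

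Snrpc, the U1 protein that stabilizes pairing with the 5′ splice site, was lower in Notch1+/ΔTAD libraries than in WT. It was 209, 264, 241, 167 and 341 TPM in WT libraries 1, 2, 3, 10 and 11, and 3.00, 0 and 0.771 TPM in Notch1+/ΔTAD libraries 7, 9 and 14. All 3 Notch1+/ΔTAD libraries were at or near 0, and all 5 WT libraries were at 167 TPM or more. The log2 difference was -6.96 (SE 1.31), with limma's p of 0.000114 ranked 1 of 4737 genes tested and a Benjamini-Hochberg adjusted p of 0.395, beside an exact permutation p of 0.0179. This two-sided exact p is the smallest that 5 against 3 libraries can give, and adjusted over all genes the exact p was at least 0.791. When limma's prior variance was fitted without its trend on the mean level, the adjusted p of Snrpc was 0.0230, and it was the 1 spliceosome gene to pass. Snrpc lies at chr17:27838150-27851968 on the plus strand (GRCm38, GENCODE M21), where no other gene overlaps it. Within the last 300 bases of its transcripts, at least 100 align at 95% identity or more to the pseudogene Gm8849. Gm8849 is not listed, so reads could have been split between it and Snrpc. Such copies were found for 9 of the 67 genes, Lsm7 and U2af1 among them. The other U1 genes did not separate WT from Notch1+/ΔTAD libraries as Snrpc did. Snrnp70 differed by -0.05 (SE 1.02), and the TPM of Snrpa, which also binds the U1 RNA, were 133, 1.91, 0, 6.56 and 0 in WT and 0.291, 92.0 and 0 in Notch1+/ΔTAD libraries.

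Prpf39, the counterpart of a yeast U1 snRNP protein, was the other lower gene. It was 34.5, 12.8, 21.2, 58.8 and 27.3 TPM in WT and 0.807, 2.36 and 0 TPM in Notch1+/ΔTAD libraries. Every WT library was above every Notch1+/ΔTAD library. The log2 difference was -3.96 (SE 1.70; limma, p = 0.0353, adjusted p = 0.943; exact permutation p = 0.0179). Prpf39 lies at chr12:65036333-65063386 on the plus strand (GRCm38), and its end overlaps Fkbp3 on the other strand, at chr12:65062424-65074007. The kit was stranded, but whether the counting used the strand was not given in the sources used here. Fkbp3 was 0, 4.10, 391, 211 and 432 TPM in WT and 411, 161 and 28.4 TPM in Notch1+/ΔTAD libraries, and so overlapped between the genotypes.

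Srsf4 (SRp75) and Srsf9 (SRp30c), both SR proteins, were low in WT and higher in all Notch1+/ΔTAD libraries. Srsf4 was 0, 0.266, 0, 3.04 and 3.15 TPM in WT and 47.2, 85.6 and 53.1 TPM in Notch1+/ΔTAD libraries. The difference was 5.05 (SE 1.68; limma, p = 0.00959, adjusted p = 0.695; exact permutation p = 0.0179). Srsf9 was 3.42, 0, 2.14, 0 and 1.69 TPM in WT and 37.7, 51.8 and 37.2 TPM in Notch1+/ΔTAD libraries. The difference was 4.37 (SE 1.65; limma, p = 0.0193, adjusted p = 0.864; exact permutation p = 0.0179). For both genes the lowest Notch1+/ΔTAD library was above the highest WT library, and neither adjusted p passed. The other 8 SR proteins tested had an unadjusted p of at least 0.05. Srsf4 lies at chr4:131873617-131901706 and Srsf9 at chr5:115327177-115333080, both on the plus strand (GRCm38). Srsf4 overlaps A930004J17Rik on the same strand, which is not listed in the tables, and Gm12992 on the other strand, which was at 0 in every library. No gene overlaps Srsf9. After quantile normalization the differences were 4.23 for Srsf4 and 3.67 for Srsf9.

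Snrpb2, the U2 B'' protein, was the third higher gene without overlap, though by less. It was 131, 432, 355, 502 and 233 TPM in WT and 540, 528 and 551 TPM in Notch1+/ΔTAD libraries. The 3 Notch1+/ΔTAD libraries lay close together just above the highest WT library. The difference was 0.85 (SE 0.68; limma, p = 0.230, adjusted p = 0.972; exact permutation p = 0.125), and 0.56 without WT library 1. The genes that lead each class differed by less than their error between Notch1+/ΔTAD and WT. The difference was 0.23 (SE 0.32) for Snrpg, -0.18 (SE 0.53) for U2af1, 0.25 (SE 0.75) for Lsm3, -0.43 (SE 0.88) for Prpf19 and 0.24 (SE 0.88) for Srsf5, while that of Lsm12, 2.68 (SE 2.21), was larger than its SE but had an adjusted p of 0.972 (limma). Of the markers, 1 of 10 proliferation genes tested had an unadjusted p under 0.05 (Mcm3, a difference of -1.96), and 0 of 5 myeloid genes did. The summed level of the 12 proliferation genes was 2348 to 3884 TPM in WT and 2468 to 3726 TPM in Notch1+/ΔTAD libraries.

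**Figure D3:**
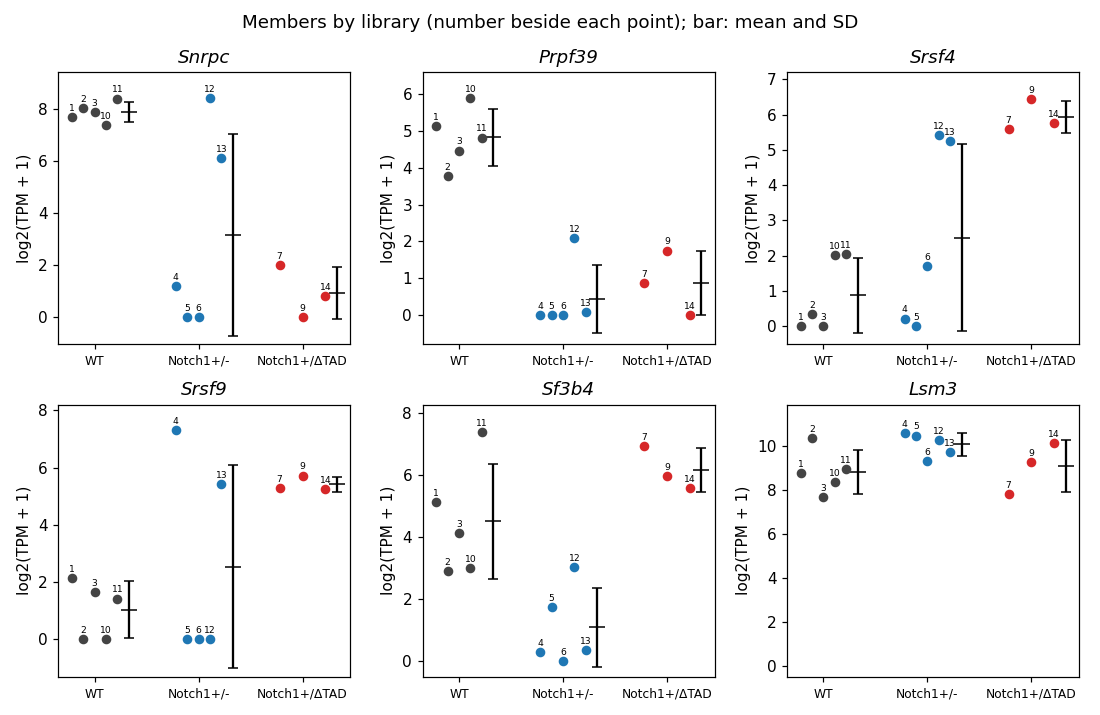
TPM on a log scale, as log2(TPM + 1), in each of the 13 libraries is shown for 6 genes (Snrpc, Prpf39, Srsf4, Srsf9, Sf3b4 and Lsm3). Each had an unadjusted p under 0.05 in at least 1 comparison (limma). There is 1 numbered point per library and a bar for the mean and SD of each genotype. Snrpc sits at 167 to 341 TPM in WT and at 0 to 3.00 TPM in Notch1+/ΔTAD libraries, and Srsf4 at 0 to 3.15 TPM and 47.2 to 85.6 TPM, with the Notch1+/- libraries of both genes spread from 0 to 345 and from 0 to 41.5 TPM.

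The sequence before the start of each of these 4 genes is shown because Notch1 acts on promoters through RBPJ, and because ETS factors bind many promoters of broadly expressed genes. Each is the 250 bases before the annotated RefSeq start (GRCm38.p6), 5′ to 3′ on the strand of the gene, and capitals mark the core of the RBPJ motif (TGGGAA) or an ETS motif (CCGGAAG) on either strand. The windows are chr17:27839837-27840086 for Snrpc, chr12:65036084-65036333 for Prpf39, chr4:131873387-131873636 for Srsf4 (the first of 3 listed starts) and chr5:115326927-115327176 for Srsf9. RefSeq and GENCODE starts differ for some genes. The Snrpc window lies inside the GENCODE span given above, so the bases before its GENCODE start were not searched. That of Srsf4 runs past its GENCODE start.
Snrpc: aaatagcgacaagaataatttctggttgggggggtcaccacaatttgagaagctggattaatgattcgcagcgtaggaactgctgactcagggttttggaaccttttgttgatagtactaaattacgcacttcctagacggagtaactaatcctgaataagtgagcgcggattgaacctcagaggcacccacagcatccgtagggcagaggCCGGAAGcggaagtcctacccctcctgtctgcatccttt
Prpf39: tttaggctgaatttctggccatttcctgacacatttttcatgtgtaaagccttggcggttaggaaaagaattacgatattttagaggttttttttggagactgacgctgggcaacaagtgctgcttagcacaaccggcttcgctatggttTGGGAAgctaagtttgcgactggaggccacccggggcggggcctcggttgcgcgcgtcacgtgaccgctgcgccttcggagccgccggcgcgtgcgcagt
Srsf4: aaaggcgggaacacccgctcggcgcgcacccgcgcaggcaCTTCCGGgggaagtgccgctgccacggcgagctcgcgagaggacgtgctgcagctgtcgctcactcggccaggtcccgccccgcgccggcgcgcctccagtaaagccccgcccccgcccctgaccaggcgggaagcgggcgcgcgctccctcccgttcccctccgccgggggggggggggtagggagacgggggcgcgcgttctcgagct
Srsf9: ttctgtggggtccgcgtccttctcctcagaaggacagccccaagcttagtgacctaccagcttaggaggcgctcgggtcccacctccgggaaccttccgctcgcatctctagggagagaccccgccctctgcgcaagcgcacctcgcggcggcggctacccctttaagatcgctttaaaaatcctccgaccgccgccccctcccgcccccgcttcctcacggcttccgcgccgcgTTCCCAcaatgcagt
The window of Prpf39 held 1 TGGGAA, 100 bases before the start, and that of Srsf9 held 1 on the other strand, 15 bases before the start. Those of Snrpc and Srsf4 held 1 CCGGAAG each. Thus 1 lower and 1 higher gene carried each motif. Of the 67 genes, 56 had a promoter entry. TGGGAA was in 15 of these 56 (26.8%), against 24.1% of the 27025 genes with an entry. CCGGAAG was in 19 of the 56 (33.9%), against 7.83% of all genes. Expressed genes carry the ETS motif more often in general. Among genes with a median of at least 10 TPM it was in 12 of 33 spliceosome genes (36.4%) and in 18.6% of 1748 genes, while TGGGAA was in 6 of the 33 (18.2%) and in 22.4%. By class, CCGGAAG was in 7 of 11 U2 and U2AF genes, 4 of 11 SR proteins and 1 of 5 Sm core genes. A match in these letters is a description of the window, not a binding site.

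Notch1+/- libraries, which have 1 functional Notch1 allele and no TAD-deleted one, were then compared with WT over the genes at 1 TPM or more in at least 5 of the 10 libraries. Again 0% of the 3178 genes tested, and 0 of the 48 spliceosome genes tested, were called after adjustment at 0.05. Before adjustment, at p under 0.05, 1 of the 48 was higher (Lsm3), against 2.67% of all genes, and 3 were lower (Prpf39, Snrpc and Sf3b4), against 2.67%. Without Notch1+/- library 4, 2 genes were under 0.05 in place of 4. Groups did not overlap for 1 lower gene, Prpf39, against 0.378% of all genes, and for 0 higher genes, against 0.409%. Of the 48 genes, 17 were higher and 31 lower (35.4% higher, against 51.4% of all genes), with a median difference of -0.21 against 0.06. The sign of this median rested on single libraries, since it was -0.49 without WT library 10 and 0.03 without Notch1+/- library 6. Without WT library 1, 2 or 3 it was -0.06, -0.12 or -0.05, without Notch1+/- library 4 or 5 it was -0.12 or -0.11, and without library 13 it was -0.33. In this comparison every class but the SR proteins, at 0.72, had a median below 0. That of the U6 ring with Lsm1 was only -0.01 and that of the Sm core -0.06. The classes of other Lsm genes and of U11/U12 genes each had 1 gene tested. Of the markers, 0 of 4 myeloid and 0 of 10 proliferation genes tested had an unadjusted p under 0.05.

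Prpf39 was low in both mutants. It was 0, 0, 0, 3.27 and 0.0445 TPM in Notch1+/- libraries 4, 5, 6, 12 and 13, so all 5 were below the lowest WT library, at 12.8 TPM. The difference was -4.39 (SE 1.17; limma, p = 0.00192, adjusted p = 0.507; exact permutation p = 0.00794), and limma's p ranked 10 of the 3178 genes. The exact p is the smallest that 5 against 5 libraries can give, and adjusted over all genes the exact p was at least 0.940. In Fkbp3, the overlapping gene on the other strand, the Notch1+/- libraries were at 85.3, 597, 0.882, 191 and 342 TPM, over about the range of the WT libraries. The difference of Prpf39 between Notch1+/ΔTAD and WT given above rests on the same WT libraries.

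Snrpc was split within Notch1+/-. It was 1.29, 0 and 0 TPM in libraries 4, 5 and 6, and 345 and 69.4 TPM in libraries 12 and 13. Thus 4 of the 5 were below the lowest WT library, and library 12 was above the highest. The difference from WT was -4.74 (SE 1.62; limma, p = 0.0105, adjusted p = 0.756; exact permutation p = 0.0476). Srsf4 was split along the same library numbers, with 0.167, 0 and 2.25 TPM in libraries 4, 5 and 6 and 41.5 and 36.7 TPM in libraries 12 and 13. Its difference was 1.63 (SE 1.21). Srsf9 was 159, 0, 0, 0 and 41.5 TPM in the Notch1+/- libraries, and its difference was 1.50 (SE 1.45). Neither SR protein had an unadjusted p under 0.05 here. Library numbers 1 to 9 and 10 to 14 each hold all 3 genotypes, and the sample titles name no batch of library preparation. Within numbers 1 to 9, the Snrpc difference between Notch1+/- and WT was -7.50 (3 against 3 libraries), and within 10 to 14 it was -0.62 (2 against 2), so it held in the first range and was small in the second. Between Notch1+/ΔTAD and WT it was -6.90 (2 against 3) and -7.08 (1 against 2). For Srsf4 the difference between Notch1+/- and WT was 0.53 and 3.29 in the same ranges, and for Prpf39 it was -4.47 and -4.28. WT and Notch1+/- fall into the ranges alike, so a model term for the range could not change these estimates over all libraries.

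Sf3b4, a subunit of the U2 complex SF3B, was 34.0, 6.43, 16.5, 7.10 and 166 TPM in WT and 0.240, 2.35, 0, 7.28 and 0.274 TPM in Notch1+/- libraries. Of the 5 Notch1+/- libraries, 4 were below every WT library. The difference was -3.42 (SE 1.37; limma, p = 0.0245, adjusted p = 0.853; exact permutation p = 0.0238). Lsm3, of the ring that binds U6, was the 1 higher gene, with 445, 1342, 206, 328 and 498 TPM in WT and 1544, 1445, 647, 1259 and 850 TPM in Notch1+/- libraries. All Notch1+/- libraries were above 4 of the 5 WT libraries. The difference was 1.25 (SE 0.56; limma, p = 0.0402, adjusted p = 0.892; exact permutation p = 0.0476). In Notch1+/ΔTAD libraries Lsm3 was 225, 626 and 1153 TPM, over the range of WT. Prpf19, described above, differed by -1.37 (SE 0.83; limma, adjusted p = 0.969; exact permutation p = 0.0159). Snrpg and U2af1 differed by -1.17 (SE 0.92) and -1.69 (SE 1.19), in each case with 1 Notch1+/- library far below the others.

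**Figure D4:**
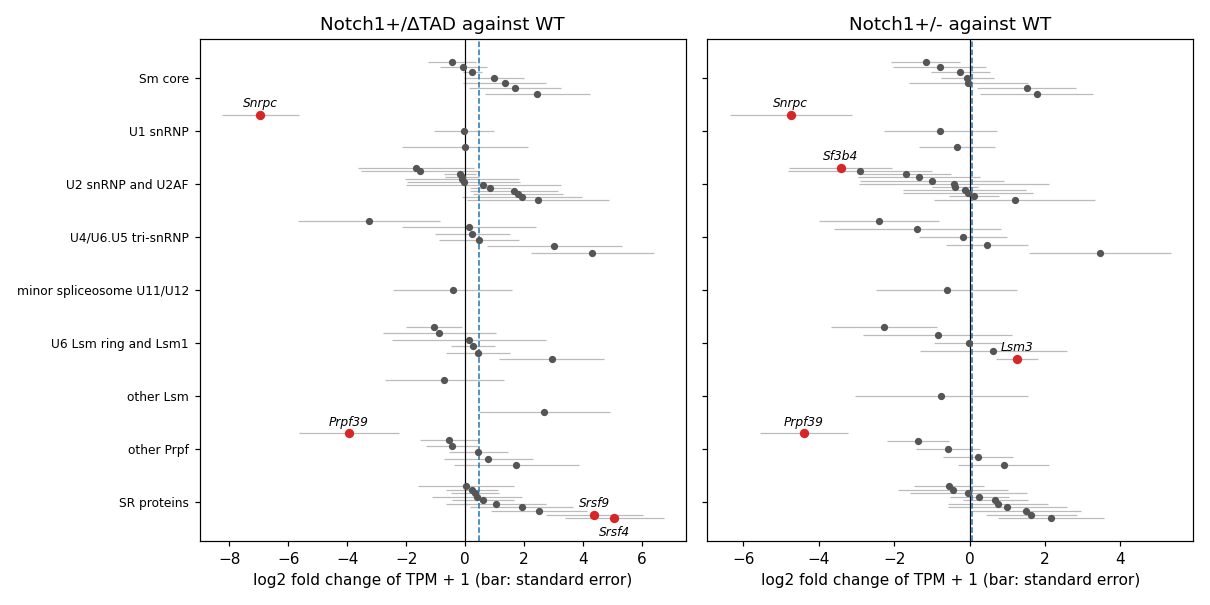
The log2 difference on the log2(TPM + 1) scale, with its SE as a bar, is shown for each tested spliceosome gene in Notch1+/ΔTAD against WT (53 genes) and Notch1+/- against WT (48 genes), with red for an unadjusted p under 0.05 and a dashed line at the median of all genes tested. Snrpc (-6.96 and -4.74) and Prpf39 (-3.96 and -4.39) are low in both panels, and 36 of 53 and 33 of 48 genes lie within 1 SE of the dashed line.

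The mutants were also compared with each other. Their values come from separate tables, but TPM is scaled within each library and the 5 WT columns were identical in both tables. All 13 libraries entered this fit, over the genes at 1 TPM or more in at least 3 of them. After adjustment 0% of the 6281 genes tested and 0 of the 62 spliceosome genes tested passed 0.05. Before it, at p under 0.05, 1 of the 62 was higher in Notch1+/ΔTAD (Sf3b4), against 4.09% of all genes, and 0 were lower, against 1.24%. Without Notch1+/- library 4 the number was 3, and without library 1, 7, 9, 10, 12, 13 or 14 it was 2. Groups did not overlap for 3 higher genes (Sf3b4, Srsf4 and Lsm7), against 2.44%, and for 0 lower genes, against 0.621%. Of the 62 genes, 44 (71.0%) were higher in Notch1+/ΔTAD, against 58.9% of all genes, and the median difference was 0.55, against 0.35. That median was 0.30 without Notch1+/- library 5, 0.32 without library 6 and 0.33 with a pseudocount of 10. It was 0.77 without Notch1+/- library 12 and 0.82 with a pseudocount of 0.1. After quantile normalization it was 0.30, and that of all genes was -0.02.

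Sf3b4 was 122, 61.2 and 46.9 TPM in Notch1+/ΔTAD libraries, each of them above the highest Notch1+/- library, at 7.28 TPM. The difference was 5.07 (SE 1.70; limma, p = 0.00681, adjusted p = 0.932; exact permutation p = 0.0179). The WT libraries, at 6.43 to 166 TPM, overlapped both mutants. Sf3b4 lies at chr3:96172332-96177564 on the plus strand (GRCm38). Srsf4 differed by 3.41 (SE 1.81; limma, p = 0.0723, adjusted p = 0.967; exact permutation p = 0.0357), with every Notch1+/ΔTAD library above the highest Notch1+/- library. Lsm7, of the U6 ring, was 350, 427 and 445 TPM in Notch1+/ΔTAD and 111, 327, 0, 326 and 326 TPM in Notch1+/- libraries, and 306, 256, 621, 1.62 and 2.39 TPM in WT. Its difference between the mutants was 2.29 (SE 1.95; limma, adjusted p = 0.997; exact permutation p = 0.375), and 0.70 without Notch1+/- library 6. Snrpc, low in most libraries of both mutants, differed between them by -2.21 (SE 1.89; limma, adjusted p = 0.997). In this comparison 2 of 7 myeloid genes tested were higher in Notch1+/ΔTAD at an unadjusted p under 0.05 (Lyz2, 3.48, and S100a9, 6.06). The part of myeloid cells in these differences was not tested.

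Other genes of the same machinery were tested in the same fits. A list of 92 further spliceosome genes (helicases, the Prp19 complex, tri-snRNP partners, snRNP assembly factors, SR kinases and hnRNPs) had 91 genes in the tables. Between Notch1+/ΔTAD and WT, 0 of 75 tested passed 0.05 after adjustment (limma), 3 were higher at an unadjusted p under 0.05 (4.00%, against 4.14% of all genes) and 0 lower (against 0.866%), and the median difference of the 75 was 0.31, against 0.47. The 3 were Cdc40 (3.92), a factor of the second step of splicing, Ppil1 (4.99) and Zcrb1 (5.49), a protein of the minor spliceosome. Between Notch1+/- and WT, 0 of 62 tested had an unadjusted p under 0.05, and the median was 0.13, against 0.06. Between the mutants, Cd2bp2 (5.61), a U5 protein, and Srpk2 (4.10), a kinase of SR proteins, were higher in Notch1+/ΔTAD and Ppie (-4.67) was lower, at an unadjusted p under 0.05, of 82 tested. These were 2.44% and 1.22% of the list, against 4.09% and 1.24% of all genes. None of these 3 had an adjusted p under 0.05.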

How the data were processed

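The authors sorted CLPs from each mouse and prepared stranded QuantSeq 3′ libraries. Per the study's methods, reads were trimmed with FASTQ Toolkit and aligned to mm10 with STAR. The deposited values are TPM in 2 tables that share the 5 WT libraries. The tool and annotation behind TPM, and whether it used the strand, were not given in the sources used here. The files hold no counts, so depth is unknown and no count model was used.

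From there, log2(TPM + 1) was tested with limma 3.58.1 (R 4.3.3; empirical Bayes with a trend on the mean level) over genes at 1 TPM or more in at least as many libraries as the smaller group, with p adjusted over all genes tested by Benjamini-Hochberg, and with an exact two-sided permutation test per gene. The code was tested on simulated data. Genes named in full had an unadjusted p under 0.05, groups that did not overlap, or the highest median of their class. Members, classes and lists were chosen with earlier results of these data known. Alternatives were another pseudocount, 2 other filters, 2 scalings, no trend, 1 model of all 13 libraries, a library-number term and leaving out each library. Positions came from GENCODE M21 and promoters from RefSeq (GRCm38.p6).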

Additional observations from a re-analysis of the deposited data

Results flagged for a closer look

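Among the genes described library by library, 6 groups of 5 libraries had 1 library far from the other 4 on the log2(TPM + 1) scale, with a gap above 0.71 of the range of the group. In all, 38 groups were checked, some of them for the number of genes above 0, the number of spliceosome genes above 0 and their share of TPM. Chance gives about 1 in 20, or 1.9, only for normally distributed values. These values have a floor at 0, and some genes were named for their separation, so the number expected here is not known. In Notch1+/-, Snrpg was 35.2 TPM in library 4, U2af1 was 6.72 TPM in library 6, Lsm7 was 0 TPM in library 6, and Snrnp40 was 7.67 TPM in library 5, each below the other Notch1+/- libraries. Prpf39 was 3.27 TPM in Notch1+/- library 12, above the other 4. In WT, Snrnp48 was 0 TPM in library 2, below the other 4. These values lie in 5 libraries, and their cause was not tested.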

How the results depend on the processing

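The median difference of the spliceosome genes between Notch1+/- and WT was -0.21 and turned to 0.03 without Notch1+/- library 6, with a range of -0.49 to 0.03 when 1 library was left out. No other median of the spliceosome genes and no single-gene difference changed sign among the alternatives tried. The order of the medians did change between Notch1+/ΔTAD and WT. As deposited, the spliceosome genes were below all genes (0.33 against 0.47), and after quantile normalization above them (0.21 against -0.03). With 1 library left out, the median of the spliceosome genes ranged from 0.21 to 0.58 between Notch1+/ΔTAD and WT and from 0.30 to 0.77 between the mutants. Between the mutants it was 0.82 with a pseudocount of 0.1. Without a trend in the prior variance, 1 spliceosome gene passed an adjusted p of 0.05 between Notch1+/ΔTAD and WT (Snrpc, adjusted p = 0.0230 by limma), and 0 did in every other setting run. The number at an unadjusted p under 0.05, 4 between Notch1+/ΔTAD and WT, was 8 with all genes above 0 tested and 3 to 5 with 1 library left out. Between Notch1+/- and WT it was 4, and 2 to 6 with 1 library left out, the 2 without Notch1+/- library 4. Between the mutants it was 1, but 3 with a pseudocount of 10, 3 with all genes above 0 tested, 3 without the trend, 2 with a library-number term and 1 to 3 with 1 library left out (3 without Notch1+/- library 4, and 2 without any 1 of libraries 1, 7, 9, 10, 12, 13 and 14). The causes were not tested. Of 224 alternatives for 12 differences of single genes, 223 gave the direction and the call of the value reported. For each of these genes the reported call was an adjusted p of at least 0.05. Many alternatives could not change a difference. These were the other filters, the fit without the trend, the model of all 13 libraries and, between the mutants, leaving out a WT library. The tally therefore does not measure how firm the differences are. The difference of Snrpc between Notch1+/ΔTAD and WT ranged from -8.52 to -4.47, and that of Prpf39 between Notch1+/- and WT from -6.97 to -1.85. No paired analysis was possible because library numbers are not shared between genotypes. Depth is unknown, so a value listed at 0 sets no limit on the level of a gene, and long genes are set low by length-scaled TPM of 3′ reads.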
